A study of Mus musculus with 31 samples.

Results

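The comparison described here is the effect of dexamethasone (Dex) on bone marrow-derived macrophages stimulated with interferon-gamma (IFNγ) and LPS. It sets the 2 libraries labelled Dex, IFNg and LPS against the 2 labelled IFNg and LPS, over all genes, and so uses 4 of the 31 RNA-seq libraries of the series. These 4 belong to the second of 2 experiments, which has 10 libraries in 5 groups of 2. The groups used are Dex + IFNγ + LPS, IFNγ + LPS, Dex + dBRD9 + IFNγ + LPS, dBRD9 + IFNγ + LPS and, as the unstimulated level, vehicle. From the first experiment, Dex + LPS and LPS (3 libraries each) were used to set the Dex effect with IFNγ beside that without it. All cells came from male C57BL/6J mice aged 6 to 12 weeks and were differentiated with L-929 conditioned medium. Dex was given at 1 µM and dBRD9, a compound that degrades the chromatin remodeller subunit BRD9, at 250 nM, both overnight. LPS followed at 100 ng/ml for 3 h. The fits also held the other groups of the first experiment, which served only the filter, scaling and shared spread. These were vehicle, and LPS with dBRD9, with iBRD9 (a BRD9 inhibitor), with Dex + dBRD9 or with Dex + iBRD9. No source used here gives the dose or timing of IFNγ. The labels do not say whether replicates are separate animals or cultures, so p-values measure the spread between these libraries, which may be technical.

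Dex binds the glucocorticoid receptor, a nuclear receptor that raises some genes through its own DNA elements and lowers many inflammatory genes whose transcription is driven by NF-κB and AP-1. LPS, a bacterial cell wall component, signals through Toll-like receptor 4 and induces cytokines and interferon-beta, which in turn acts on the cell through its own receptor. IFNγ signals through JAK kinases and raises antigen presentation, chemokines for T cells and the guanylate-binding and immunity-related GTPases that act against intracellular microbes. Macrophages exposed to both are a standard model of classical activation.

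Depth in the second experiment was 14.47 to 17.93 M counts per library (M, units of 1e6 counts), and levels below are CPM, the counts of a gene per 1e6 counts of its library after scaling by trimmed mean of M values (TMM) factors. Macrophage markers were high in all 4 libraries: Csf1r, the receptor for macrophage colony-stimulating factor, had 1409 and 1323 CPM with Dex + IFNγ + LPS and 1193 and 1336 CPM with IFNγ + LPS. Adgre1, the F4/80 antigen, had 1743 and 1578 CPM with Dex + IFNγ + LPS against 1754 and 1810 CPM with IFNγ + LPS. Of 18 macrophage identity genes, 2 rose, 2 fell and 14 were not called. Beside this count and those of the other markers below, 10.7% of all tested genes were called higher and 9.21% lower. The 2 libraries of a group differed by more than counting error, with a chi-square per degree of freedom of 17.7 in the Dex + IFNγ + LPS pair and 30.9 in the IFNγ + LPS pair. Within the Dex pair the difference between libraries correlated with transcript length (Spearman's rho 0.509 over 9372 genes, a description). Lars2, a gene that collects ribosomal RNA reads, had 97.7 CPM in IFNγ + LPS replicate 1 and 2853 to 5139 CPM in the other 3 libraries. Markers of other cell types were present at lower summed levels, and several differed between the groups. The summed level of 13 neutrophil markers was 105 and 99.2 CPM with Dex + IFNγ + LPS and 212 and 233 CPM with IFNγ + LPS. Most of this was Csf3r, the receptor for granulocyte colony-stimulating factor, while Ly6g was at 0 in all 4 libraries; 5 of 8 tested members fell. Of 12 T and NK cell markers, 8 including Cd3e, Cd3g and Trac were at 0 in both groups, and the summed level was 62.7 and 66.2 CPM with Dex + IFNγ + LPS against 103 and 116 CPM with IFNγ + LPS, with 1 of 2 tested members lower. The 11 dendritic cell markers summed to 151 and 158 CPM with Dex + IFNγ + LPS and 200 and 218 CPM with IFNγ + LPS, with 2 of 5 tested members lower. The 10 mast cell and basophil markers summed to 23.8 and 24.3 CPM with Dex + IFNγ + LPS and 34.3 and 34.8 CPM with IFNγ + LPS, with 1 of 2 tested members lower. The summed stromal markers were at 60.5 and 71.5 CPM with Dex + IFNγ + LPS and 86.9 and 97.5 CPM with IFNγ + LPS; 3 of 9 tested members fell, but 1 was called without Dex + IFNγ + LPS replicate 1 and 0 without IFNγ + LPS replicate 2. In vehicle, the summed levels were 105 and 113 CPM for the neutrophil and 82.5 and 75.9 CPM for the stromal markers. They were 6.2 and 6.55 CPM for the T and NK cell, 41.1 and 53 CPM for the dendritic cell, and 2.02 and 2.53 CPM for the mast cell and basophil markers. The part of these cell type markers in the results was not tested. In bulk RNA, fewer cells of a type and less RNA per cell cannot be told apart.

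Dex changed the macrophage transcriptome in both directions. Of 13313 tested genes, 1429 rose (10.7% of all tested) and 1226 fell (9.21%) at an adjusted p under 0.05. At least 2-fold changes were called in 554 genes that rose (4.16%) and 348 that fell (2.61%), and at least 8-fold changes in 86 and 33. The median log2 fold change over all tested genes was 0.0279. Protein-coding genes made up 95.5% of the genes that rose, 92.1% of those that fell and 86.7% of all tested. The share of calls that were higher was 53.8%, against 64.3% when library totals alone set the scale. It was below that of lower calls under other settings: 45.3% by DESeq2, 46.2% with DESeq2's size factors in edgeR and 44.7% with an offset for transcript length. With 1 library left out, the calls were 939 higher and 973 lower without Dex + IFNγ + LPS replicate 1, and 1102 and 807 without replicate 2. They were 792 and 757 without IFNγ + LPS replicate 1, and 856 and 674 without replicate 2. The plot of fold change against level shows that the largest rises and falls span genes of low and high expression.

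**Figure D1:**
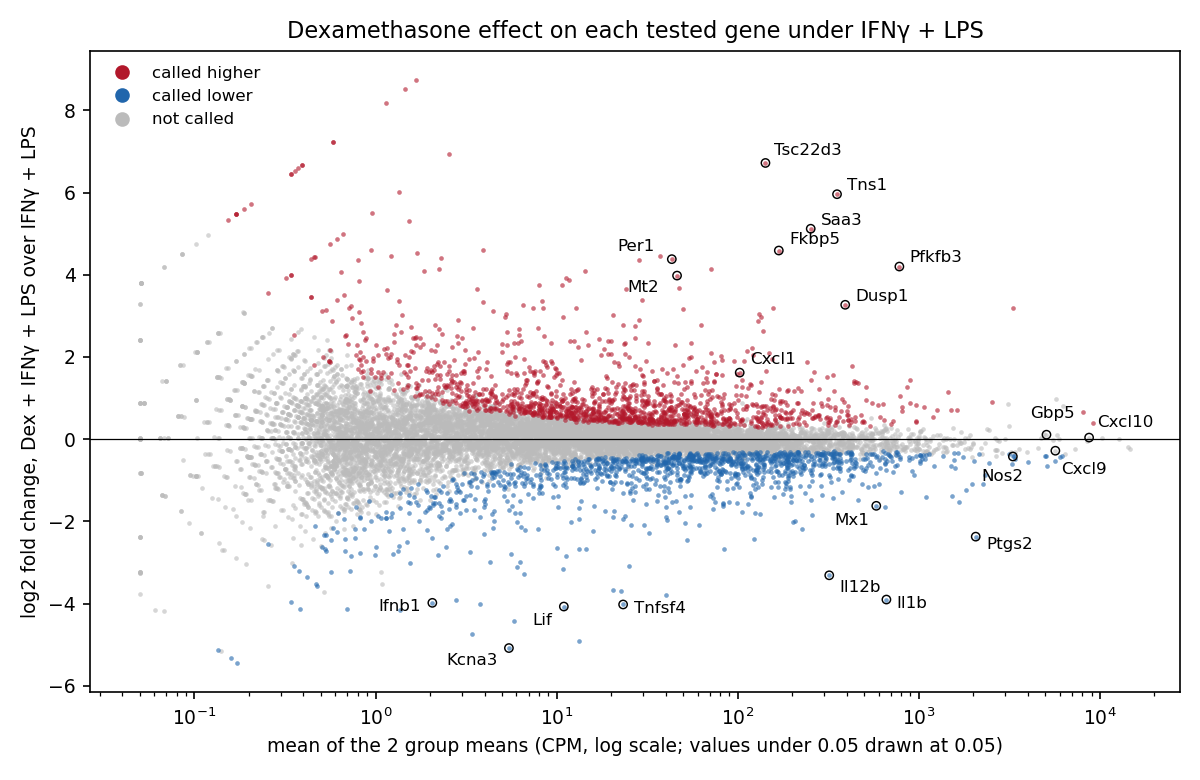
Each point is 1 of 13313 tested genes, with the mean of both groups' CPM (log axis) against the log2 fold change of Dex + IFNγ + LPS over IFNγ + LPS; red points were called higher, blue points lower and grey points neither. Among the labelled genes Tsc22d3 (6.72) and Tns1 (5.96) lie highest, Il1b (-3.90) and Il12b (-3.31) lie low, and Cxcl10, Gbp5 and Cxcl9 lie near 0 at levels over 1000 CPM; the diagonal streaks at the left are genes with few counts.

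Known targets of the glucocorticoid receptor were among the strongest rises. Of 33 tested genes on a list of glucocorticoid-induced genes, 17 rose, 2 fell and 14 were not called, with a median log2 fold change of 1.64. Tsc22d3, which encodes the anti-inflammatory protein GILZ, had 270 and 294 CPM with Dex + IFNγ + LPS, against 2.61 and 2.73 CPM with IFNγ + LPS and 42.9 and 44.5 CPM in vehicle. Tsc22d3 thus rose 105-fold (log2 fold change 6.72 ± 0.15, SE throughout, with adjusted p = 5.2e-14). Fkbp5, a cochaperone that limits hormone binding by the receptor, had 324 and 323 CPM with Dex + IFNγ + LPS against 13.5 and 13.4 CPM with IFNγ + LPS (4.59 ± 0.12, adjusted p = 4.2e-13). The libraries of both groups lie far apart for these genes. Over all tested genes, the 2 groups did not overlap in 31.9% with the Dex libraries higher and in 28.0% with them lower. The receptor gene itself, Nr3c1, was at 137 and 112 CPM with Dex + IFNγ + LPS and 105 and 132 CPM with IFNγ + LPS, and its groups overlap. Tns1, a tensin that links integrins to actin, rose by 5.96 ± 0.22 on the log2 scale, to 804 and 587 CPM with Dex + IFNγ + LPS, against 9.54 and 13 CPM with IFNγ + LPS. Lcn2, the siderophore-binding lipocalin 2, reached 129 and 140 CPM with Dex + IFNγ + LPS, against 6.68 and 8.5 CPM with IFNγ + LPS. Mt1 and Mt2 encode metallothioneins, which bind zinc and copper. Mt1 had 5022 and 6936 CPM with Dex + IFNγ + LPS against 661 and 650 CPM with IFNγ + LPS (3.19 ± 0.18). Cd163, the haemoglobin scavenger receptor, had 13.5 and 10.2 CPM with Dex + IFNγ + LPS against 1.46 and 0.96 CPM with IFNγ + LPS (3.26 ± 0.31). Not every listed gene followed. Rgs2, a regulator of G protein signalling chosen after its values were seen, fell to 11.2 and 10.9 CPM with Dex + IFNγ + LPS, against 55.3 and 51.4 CPM with IFNγ + LPS (-2.28 ± 0.16). Mertk, the receptor for uptake of apoptotic cells, overlapped between groups, with 273 and 225 CPM with Dex + IFNγ + LPS against 216 and 268 CPM with IFNγ + LPS (0.04 ± 0.16, adjusted p = 0.90).

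Other genes among the 15 with the highest fold change were Saa3, an acute phase serum amyloid A, with 441 and 543 CPM with Dex + IFNγ + LPS against 12.9 and 15.4 CPM with IFNγ + LPS. Sik1, a salt-inducible kinase, had 74.7 and 67.7 CPM with Dex + IFNγ + LPS against 2.98 and 3.55 CPM with IFNγ + LPS. Vdr, the vitamin D receptor, had 23.5 and 16.5 CPM with Dex + IFNγ + LPS against 1.21 and 1.77 CPM with IFNγ + LPS. All 3 genes rose. Pfkfb3, which makes the activator of phosphofructokinase, had the highest level of the 15, with 1628 and 1337 CPM with Dex + IFNγ + LPS against 78.5 and 83 CPM with IFNγ + LPS and 12.4 and 17.7 CPM in vehicle (4.20 ± 0.15). Sult1a1, a sulfotransferase, had 25.2 and 29.2 CPM with Dex + IFNγ + LPS against 1.52 and 1.7 CPM with IFNγ + LPS, and a gene on the other strand, Sgf29, overlaps it, so reads of both cannot be told apart where strand is not stated.

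Among transcription factors, the clock and the KLF and C/EBP families moved mostly upward. Of 16 tested clock genes, 7 rose and 2 fell (median 0.58), and of 13 tested KLF and C/EBP genes, 7 rose and 2 fell (median 0.53). Per1, a repressor in the clock loop and a receptor target, had 91.4 and 73.7 CPM with Dex + IFNγ + LPS against 4.13 and 3.77 CPM with IFNγ + LPS (4.38 ± 0.21, adjusted p = 5.4e-10). Klf2, a factor that restrains macrophage activation, had 47.3 and 61.7 CPM with Dex + IFNγ + LPS against 3.1 and 2.14 CPM with IFNγ + LPS, while vehicle had 26.3 and 18.9 CPM. Cebpa, a myeloid lineage factor, had 28.7 and 29.6 CPM with Dex + IFNγ + LPS against 5.16 and 5.61 CPM with IFNγ + LPS, and both stayed under the 189 and 179 CPM of vehicle. Maf, another macrophage factor, went the other way, with 90.1 and 75.6 CPM with Dex + IFNγ + LPS against 327 and 334 CPM with IFNγ + LPS (-2.00 ± 0.12, adjusted p = 1.1e-08). Nr1d1, the clock repressor REV-ERBα, had 0 counts in both Dex + IFNγ + LPS libraries and 8 with IFNγ + LPS, at least 2.61-fold lower when the Dex group is taken at a floor of 3 counts. It was chosen after its values were seen, its call was lost in 8 of 13 alternatives, leaving out any 1 of the 4 libraries included, and it overlaps Thra on the other strand. Bhlhe40, another clock repressor, fell to 5.38 and 4.23 CPM with Dex + IFNγ + LPS, against 11.5 and 12.3 CPM with IFNγ + LPS.

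Of 19 tested AP-1, EGR and immediate early genes, 9 fell and 3 rose (median -0.30); 5 fell without Dex + IFNγ + LPS replicate 1 and 4 without IFNγ + LPS replicate 1. Jun, the AP-1 subunit, had 42 and 37.3 CPM with Dex + IFNγ + LPS against 99.7 and 112 CPM with IFNγ + LPS (-1.42 ± 0.12, adjusted p = 3e-07). Ier3, an early stress response gene, had 18.9 and 24.2 CPM with Dex + IFNγ + LPS against 75.6 and 71.9 CPM with IFNγ + LPS. Negative regulators of the inflammatory kinases behaved differently from one another. Dusp1, the phosphatase that switches off p38 and JNK, had 695 and 727 CPM with Dex + IFNγ + LPS against 74.5 and 73.3 CPM with IFNγ + LPS (3.27 ± 0.11). Zfp36, which encodes the mRNA decay factor tristetraprolin, had 851 and 893 CPM with Dex + IFNγ + LPS against 897 and 898 CPM with IFNγ + LPS (-0.04 ± 0.11). Over the 16 genes of MAP kinase phosphatases and mRNA decay, 5 rose and 3 fell. Nfkbia, the inhibitor IκBα, had 1070 and 1140 CPM with Dex + IFNγ + LPS and 951 and 957 CPM with IFNγ + LPS and was not called (0.21 ± 0.10, adjusted p = 0.16). Irak3, an inhibitor of Toll-like receptor signalling, had 73.5 and 64.5 CPM with Dex + IFNγ + LPS against 20.7 and 26.9 CPM with IFNγ + LPS (1.54 ± 0.16). Tmbim4, annotated on the other strand with more counts, overlaps Irak3, so reads of both cannot be told apart where strand is not stated. Rel, an NF-κB subunit, had 325 and 280 CPM with Dex + IFNγ + LPS against 551 and 578 CPM with IFNγ + LPS (-0.90 ± 0.14). Over 22 NF-κB genes 4 rose and 4 fell, with 1 rise left without Dex + IFNγ + LPS replicate 1, 1 without IFNγ + LPS replicate 1 and 2 without IFNγ + LPS replicate 2.

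Inflammatory cytokines fell broadly. Of 28 tested, 19 fell, 3 rose and 6 were not called, with a median log2 fold change of -1.05. Il1b, the cytokine interleukin-1 beta, had 78.8 and 87.9 CPM with Dex + IFNγ + LPS against 1304 and 1179 CPM with IFNγ + LPS and 1.61 and 2.01 CPM in vehicle (-3.90 ± 0.14, adjusted p = 2.6e-11). Il1bos, annotated on the opposite strand of Il1b, was also among the lowest, but without a stated strand its reads cannot be told from those of Il1b. Il12b, the p40 chain of interleukins 12 and 23, had 63.5 and 53.7 CPM with Dex + IFNγ + LPS against 596 and 569 CPM with IFNγ + LPS (-3.31 ± 0.14, adjusted p = 3.5e-10). Il6 had 74.8 and 85.8 CPM with Dex + IFNγ + LPS against 330 and 317 CPM with IFNγ + LPS (-2.01 ± 0.16). All 3 cytokines remained above the vehicle libraries in the presence of Dex. Il1a fell to 37.8 and 38.8 CPM with Dex + IFNγ + LPS, against 213 and 200 CPM with IFNγ + LPS. Lif and Osm, both ligands of receptors with the gp130 chain, fell by 4.07 ± 0.34 and 3.15 ± 0.22 on the log2 scale. Inhba, the activin A subunit, fell by 3.68 ± 0.24. Anti-inflammatory members fell as well. Il10 had 0.613 and 1.3 CPM with Dex + IFNγ + LPS against 3.71 and 3.32 CPM with IFNγ + LPS (-1.87 ± 0.38), and Il1rn, the interleukin-1 receptor antagonist, had 848 and 841 CPM with Dex + IFNγ + LPS against 2167 and 2271 CPM with IFNγ + LPS (-1.39 ± 0.10). Tnf, tumour necrosis factor, fell by a smaller amount. It had 2783 and 2918 CPM with Dex + IFNγ + LPS against 3775 and 3866 CPM with IFNγ + LPS (-0.42 ± 0.10, adjusted p = 0.0085), with an adjusted p of 0.067 without IFNγ + LPS replicate 2. Csf3, the granulocyte colony-stimulating factor, had 34 counts over both Dex + IFNγ + LPS libraries and 0 with IFNγ + LPS, at least 11.6-fold higher when the IFNγ + LPS group is taken at a floor of 3 counts. Csf2, the related factor for granulocytes and macrophages, had 2 counts with Dex + IFNγ + LPS and 21 with IFNγ + LPS, a ratio of 0.0974 (95% interval 0.0111 to 0.398, counting error only). Csf2 was chosen after its values were seen, and its call was lost in 4 of 13 alternatives. Il23a, with at most 2 counts in a library, was below the filter.

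**Figure D2:**
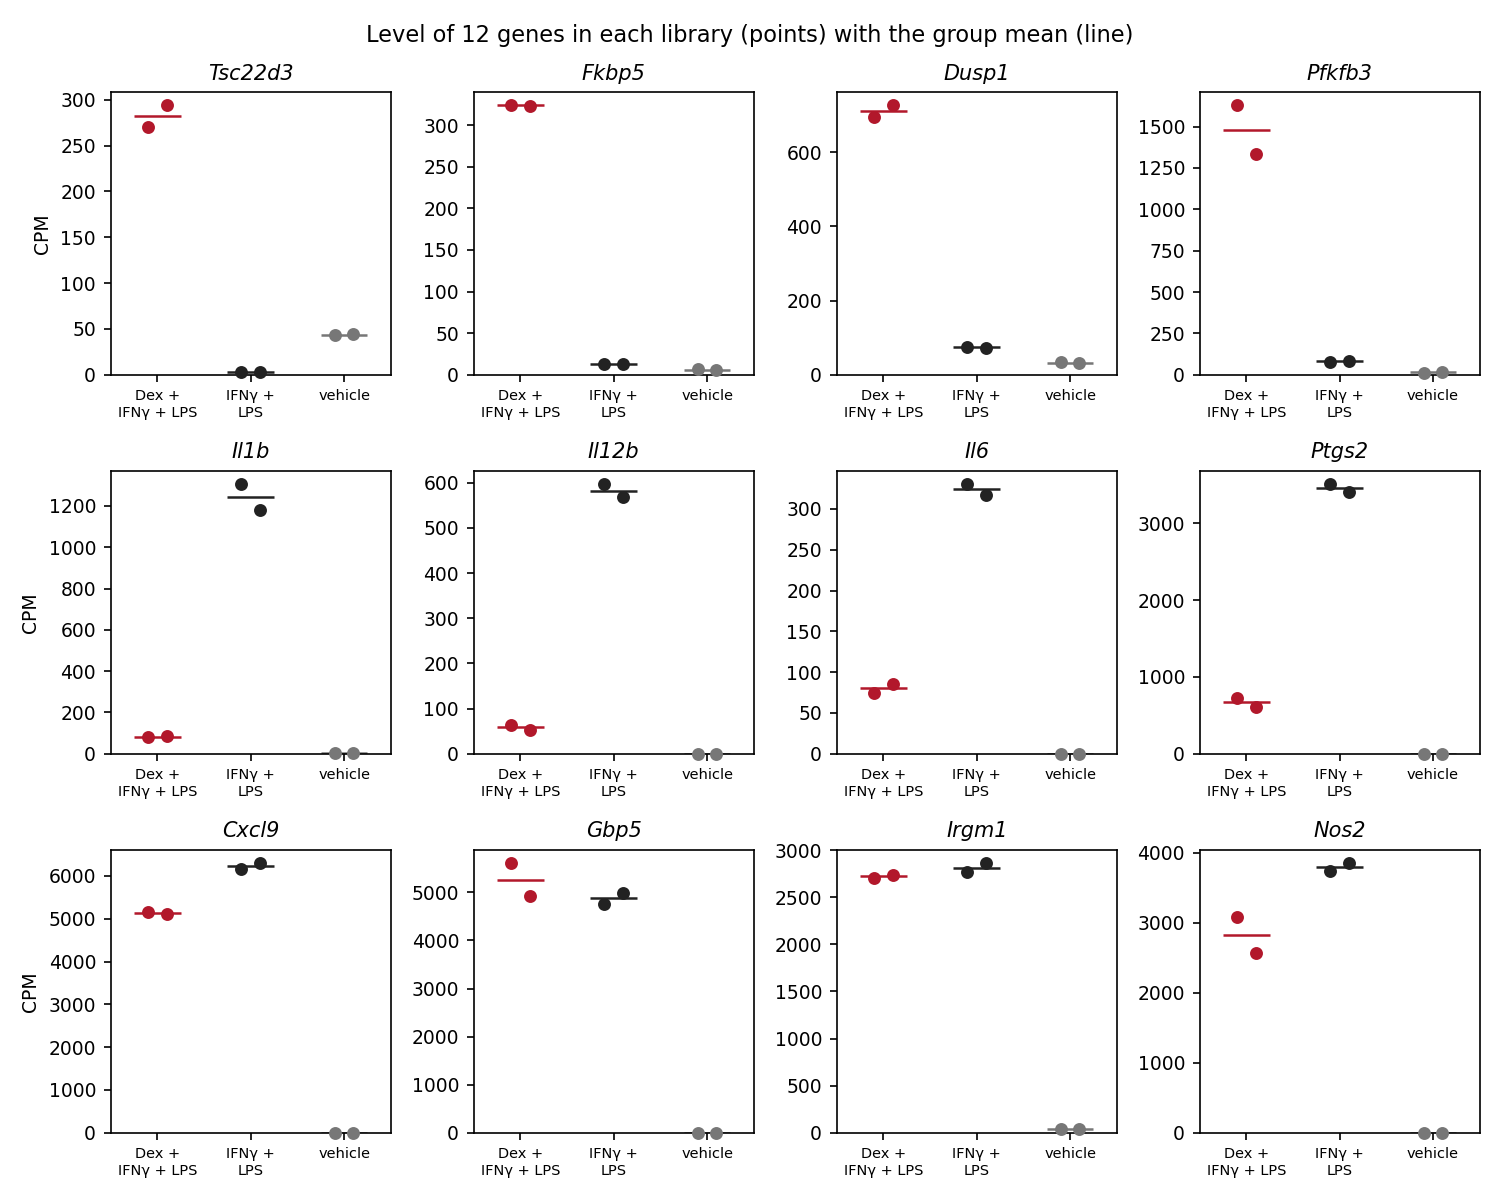
CPM of 12 genes in each library of Dex + IFNγ + LPS, IFNγ + LPS and vehicle (points, linear axes from 0), with the mean of the 2 libraries as a line. The 4 glucocorticoid-raised genes in the top panels are highest with Dex + IFNγ + LPS, the 4 inflammatory genes in the middle are lower with Dex + IFNγ + LPS than with IFNγ + LPS, and Cxcl9, Gbp5, Irgm1 and Nos2 are over 1000 CPM in both.

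Chemokines were divided. Of 20 tested, 8 fell, 4 rose and 8 were not called (median -0.12). Ccl24, an eosinophil attractant, had 5.24 and 5.67 CPM with Dex + IFNγ + LPS against 72.2 and 77.6 CPM with IFNγ + LPS (-3.78 ± 0.21). Ccl3, which attracts monocytes and T cells, had 454 and 473 CPM with Dex + IFNγ + LPS against 1230 and 1041 CPM with IFNγ + LPS (-1.29 ± 0.17). Cxcl1, a neutrophil attractant, rose instead, with 157 and 153 CPM with Dex + IFNγ + LPS against 49.6 and 50.8 CPM with IFNγ + LPS and 0.202 and 0.214 CPM in vehicle (1.62 ± 0.14, adjusted p = 4.9e-07). The interferon-induced T cell attractants were not called. Cxcl9 had 5150 and 5116 CPM with Dex + IFNγ + LPS against 6160 and 6292 CPM with IFNγ + LPS (-0.28 ± 0.12, adjusted p = 0.12), and was called lower by DESeq2 (-0.33, adjusted p = 0.017) and by 4 other alternatives. Cxcl10 had 8609 and 9090 CPM with Dex + IFNγ + LPS against 8714 and 8476 CPM with IFNγ + LPS, and its groups overlap (0.04 ± 0.12, adjusted p = 0.85). Cxcl11, annotated as a polymorphic pseudogene, had 218 and 263 CPM with Dex + IFNγ + LPS against 209 and 194 CPM with IFNγ + LPS (0.25 ± 0.13). Ccl17, a ligand of CCR4, had 78 counts over the Dex + IFNγ + LPS libraries and 1 with IFNγ + LPS, a ratio of 79.8 (95% interval 13.9 to 3190). Among the receptors for chemokines and complement, C5ar1, the C5a receptor, rose to 633 and 628 CPM with Dex + IFNγ + LPS, against 247 and 240 CPM with IFNγ + LPS.

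Type I interferon-induced genes fell together, most by under 2-fold. Of 49 tested, 35 fell, 0 rose and 14 were not called in edgeR's test, with a median log2 fold change of -0.51. None was higher at an unadjusted p under 0.05, and DESeq2 and limma voom called 0 higher. Without IFNγ + LPS replicate 2, 22 were called lower. Ifnb1, which encodes interferon-beta, had 0.272 and 0.205 CPM with Dex + IFNγ + LPS against 4.13 and 3.62 CPM with IFNγ + LPS (-3.98 ± 0.49, adjusted p = 2.9e-05). Mx1, an antiviral GTPase, had 292 and 281 CPM with Dex + IFNγ + LPS against 832 and 925 CPM with IFNγ + LPS (-1.62 ± 0.12, adjusted p = 6.2e-08). Rsad2, the antiviral enzyme viperin, had 1268 and 1218 CPM with Dex + IFNγ + LPS against 2466 and 2872 CPM with IFNγ + LPS (-1.10 ± 0.13). Ifit1, a sensor of viral RNA caps, had 441 and 453 CPM with Dex + IFNγ + LPS against 553 and 603 CPM with IFNγ + LPS (-0.37 ± 0.11, adjusted p = 0.026). The call on Ifit1 was lost when any 1 of the 4 libraries was left out, with adjusted p of 0.073 to 0.23.

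Genes of the IFNγ pathway itself were called in part, where 9.21% of all tested genes fell and 10.7% rose. Of 28 tested genes of IFNγ signalling and its targets, 10 fell, 2 rose and 16 were not called (median -0.27). The count that fell was 5 without Dex + IFNγ + LPS replicate 2, 5 without IFNγ + LPS replicate 2, and 17 with an offset for transcript length. Socs1, the feedback inhibitor of JAK kinases, had 223 and 263 CPM with Dex + IFNγ + LPS against 476 and 468 CPM with IFNγ + LPS (-0.96 ± 0.14, adjusted p = 8.1e-05). Jak2, a kinase bound to the IFNγ receptor, had 545 and 516 CPM with Dex + IFNγ + LPS against 884 and 951 CPM with IFNγ + LPS (-0.79 ± 0.10). Ifngr1, the ligand-binding receptor chain, rose to 123 and 114 CPM with Dex + IFNγ + LPS, against 67.9 and 65.2 CPM with IFNγ + LPS, and vehicle had 124 and 128 CPM (0.83 ± 0.11, adjusted p = 5.6e-05). Irf1, a transcription factor induced early by IFNγ, overlapped, with 2553 and 2800 CPM with Dex + IFNγ + LPS against 2537 and 2680 CPM with IFNγ + LPS (0.04 ± 0.11). Ido1 had 5 to 9 counts per library and was below the filter.

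The interferon-inducible GTPases were called in part. Of 11 guanylate-binding proteins, 6 fell and 1 rose (median -0.70). Gbp4 had 334 and 314 CPM with Dex + IFNγ + LPS against 729 and 730 CPM with IFNγ + LPS (-1.17 ± 0.12). Gbp2 had 5111 and 5130 CPM with Dex + IFNγ + LPS against 6774 and 7092 CPM with IFNγ + LPS (-0.44 ± 0.11, adjusted p = 0.0093), with an adjusted p of 0.051 without Dex + IFNγ + LPS replicate 2 and 0.075 without IFNγ + LPS replicate 2. Gbp5, which promotes inflammasome assembly, overlapped between groups, with 5602 and 4931 CPM with Dex + IFNγ + LPS against 4768 and 4991 CPM with IFNγ + LPS (0.11 ± 0.11). Of 10 immunity-related GTPases, 2 fell, 1 rose and 7 were not called (median -0.11). Irgm1, a regulator of this family, had 2703 and 2740 CPM with Dex + IFNγ + LPS against 2769 and 2860 CPM with IFNγ + LPS (-0.05 ± 0.10, adjusted p = 0.80). Iigp1, an effector that attacks parasite vacuoles, fell to 1697 and 1595 CPM with Dex + IFNγ + LPS, against 2849 and 3141 CPM with IFNγ + LPS (-0.86 ± 0.11). Near-identical or overlapping copies (Gbp4, Gbp8 and Gbp9, Irgm2 and Igtp, Tgtp1 and Tgtp2) may share reads, so their single values are uncertain.

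Antigen presentation genes were mostly not called. Of 13 tested MHC class II genes, 0 fell in edgeR's test, 1 rose and 12 were not called (median -0.26), while DESeq2 called 2 lower, limma voom 0, and an offset for transcript length gave 5 lower. Cd74, the invariant chain, had 392 and 442 CPM with Dex + IFNγ + LPS against 525 and 548 CPM with IFNγ + LPS and 449 and 335 CPM in vehicle (-0.36 ± 0.13, adjusted p = 0.055; DESeq2 -0.41, adjusted p = 0.015). H2-Aa had 78.9 and 76.8 CPM with Dex + IFNγ + LPS against 91.9 and 108 CPM with IFNγ + LPS (-0.36 ± 0.13, adjusted p = 0.056), and Ciita, the class II transactivator, had 47 and 34.8 CPM with Dex + IFNγ + LPS against 50.8 and 56.9 CPM with IFNγ + LPS (-0.40 ± 0.20). Dexi on the other strand overlaps Ciita, and their reads cannot be told apart without a stated strand. At an unadjusted p under 0.05, 4 of the 13 class II genes were lower. Of 22 class I and immunoproteasome genes, 2 fell and 1 rose, where 9.21% of all tested genes fell and 10.7% rose. The count lower was 5 by DESeq2, 8 with the length offset, and 0 without either IFNγ + LPS library. H2-K1, a class I heavy chain, had 2573 and 2884 CPM with Dex + IFNγ + LPS against 3549 and 3518 CPM with IFNγ + LPS (-0.37 ± 0.11, adjusted p = 0.028). The call on H2-K1 was lost without Dex + IFNγ + LPS replicate 1 (adjusted p = 0.15), IFNγ + LPS replicate 1 (0.13) or replicate 2 (0.12).

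**Figure D3:**
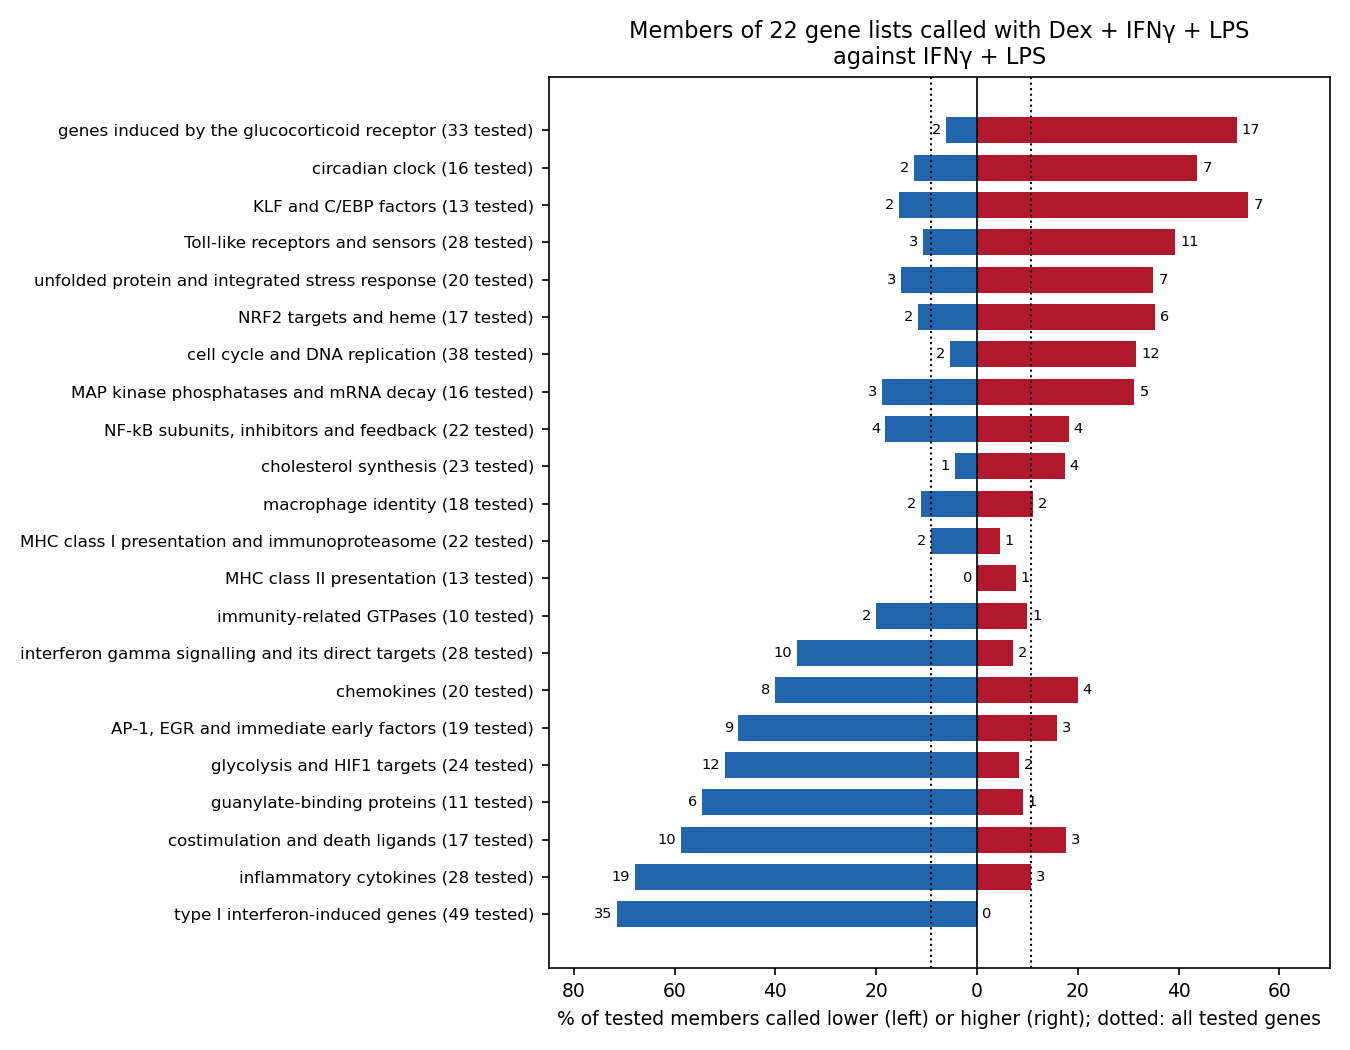
Share of the tested members of 22 gene lists called lower (blue, left) or higher (red, right) with Dex + IFNγ + LPS against IFNγ + LPS, with the number called at each bar and the shares of all tested genes (10.7% higher, 9.21% lower) as dotted lines. Type I interferon-induced genes (35 of 49) and inflammatory cytokines (19 of 28) reach furthest to the left, and KLF and C/EBP factors (7 of 13) and glucocorticoid-induced genes (17 of 33) furthest to the right.

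Promoter sequences are shown for 5 genes with different calls under the same stimulus, chosen because their windows hold matches to the motifs searched: Cxcl10 and Gbp5 (not called), Il6 and Ifnb1 (fell) and Cxcl1 (rose). They run from 250 bases before to 50 bases after the RefSeq start (GRCm38.p6), 5′ to 3′ on the gene's strand. Capitals mark matches, on either strand, to an NF-κB core (GGANTTTCC), an interferon-stimulated response element core (GAAANNGAA), a gamma-activated site (TTCNNNGAA), a glucocorticoid response element core (ACANNNTGT) or an AP-1 site (TGANTCA).
Cxcl10: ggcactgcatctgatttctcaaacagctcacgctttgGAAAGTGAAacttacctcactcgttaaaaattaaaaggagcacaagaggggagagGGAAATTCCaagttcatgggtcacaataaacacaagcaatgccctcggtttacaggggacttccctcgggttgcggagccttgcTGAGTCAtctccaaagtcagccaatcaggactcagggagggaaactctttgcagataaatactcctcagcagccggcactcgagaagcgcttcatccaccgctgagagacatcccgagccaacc
Gbp5: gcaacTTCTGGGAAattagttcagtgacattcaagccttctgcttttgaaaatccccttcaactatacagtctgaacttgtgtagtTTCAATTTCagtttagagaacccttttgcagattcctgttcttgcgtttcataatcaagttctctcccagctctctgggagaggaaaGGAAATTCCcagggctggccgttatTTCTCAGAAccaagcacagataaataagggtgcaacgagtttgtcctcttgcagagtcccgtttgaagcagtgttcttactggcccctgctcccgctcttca
Il6: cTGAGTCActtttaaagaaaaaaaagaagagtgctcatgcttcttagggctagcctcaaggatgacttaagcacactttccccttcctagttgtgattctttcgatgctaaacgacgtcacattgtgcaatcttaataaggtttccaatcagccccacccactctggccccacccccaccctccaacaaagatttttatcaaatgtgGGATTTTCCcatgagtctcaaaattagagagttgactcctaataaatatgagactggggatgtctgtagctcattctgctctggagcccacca
Ifnb1: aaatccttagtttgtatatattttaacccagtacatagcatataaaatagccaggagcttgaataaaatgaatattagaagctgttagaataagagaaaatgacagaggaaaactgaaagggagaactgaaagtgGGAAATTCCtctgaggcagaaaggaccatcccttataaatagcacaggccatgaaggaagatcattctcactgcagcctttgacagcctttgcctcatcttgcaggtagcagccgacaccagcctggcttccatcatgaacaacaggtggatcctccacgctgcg
Cxcl1: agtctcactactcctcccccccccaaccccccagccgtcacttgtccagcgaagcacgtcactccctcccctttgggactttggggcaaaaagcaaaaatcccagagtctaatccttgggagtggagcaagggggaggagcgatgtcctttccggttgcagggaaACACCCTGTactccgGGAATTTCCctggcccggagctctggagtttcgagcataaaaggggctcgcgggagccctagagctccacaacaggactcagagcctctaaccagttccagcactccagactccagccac
The Cxcl10 window lies at chr5:92348840-92349139 on the minus strand and that of Gbp5 at chr3:142496684-142496983 on the plus strand. Il6 lies at chr5:30012864-30013163 on the plus strand, Ifnb1 at chr4:88522745-88523044 on the minus strand and Cxcl1 at chr5:90890995-90891294 on the plus strand. The Cxcl10 window holds an interferon-stimulated element at -213, an NF-κB core at -158 and an AP-1 site at -74, where a position is that of the first base of the match relative to the start. Gbp5 has gamma-activated sites at -245 and -52, an interferon-stimulated element at -164 and an NF-κB core at -77. Il6 has an AP-1 site at -249 and an NF-κB core at -43, Ifnb1 an NF-κB core at -115, and Cxcl1 a glucocorticoid element core at -85 and an NF-κB core at -70. The NF-κB letters were found in any window of 8 of the 38 genes fixed for their function with a promoter here. That count is per gene and over a chosen set, so it is not comparable with shares of promoters. Counted per promoter, these letters were in 1.38% of 12239 promoters of tested genes. Among promoters of genes at least 2-fold higher with Dex (561) and at least 2-fold lower (287), these shares were 1.43% and 3.14%. The interferon-stimulated element core was in 8.02% of the higher and 14.3% of the lower set, against 7.51% of all. The glucocorticoid element core was in 7.66% and 6.27%, against 4.27% of all, the AP-1 site in 9.27% and 7.32%, against 5.28%, and the gamma-activated site in 8.02% and 5.92%, against 6.86%. These shares are descriptions with no test, and a match is not evidence that a factor binds.

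Costimulatory molecules and death ligands fell more often than they rose, with 10 of 17 tested lower, 3 higher and a median of -0.60. Tnfsf4, the OX40 ligand that stimulates T cells, had 2.45 and 2.94 CPM with Dex + IFNγ + LPS against 44.5 and 43.2 CPM with IFNγ + LPS (-4.02 ± 0.21, adjusted p = 2e-09). Cd86, a ligand of CD28, had 52 and 60 CPM with Dex + IFNγ + LPS against 184 and 204 CPM with IFNγ + LPS (-1.79 ± 0.13). Cd40, the receptor through which T cells activate macrophages, had 2490 and 2720 CPM with Dex + IFNγ + LPS against 3909 and 4013 CPM with IFNγ + LPS (-0.60 ± 0.11). Cd274, which encodes the checkpoint ligand PD-L1, had 1752 and 1547 CPM with Dex + IFNγ + LPS against 2273 and 2511 CPM with IFNγ + LPS (-0.54 ± 0.14, adjusted p = 0.010), with an adjusted p of 0.086 without Dex + IFNγ + LPS replicate 2 and 0.10 without IFNγ + LPS replicate 2. Cd200, whose product restrains myeloid cells through its receptor, fell by 3.08 ± 0.16. Havcr2, the checkpoint receptor TIM-3, rose to 11.8 and 8.74 CPM with Dex + IFNγ + LPS, against 2.25 and 1.77 CPM with IFNγ + LPS.

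Pattern recognition genes moved upward more often than downward. Of 28 tested, 11 rose and 3 fell (median 0.38). Over the alternatives that kept all 4 libraries, 10 to 13 rose and 3 to 8 fell, with 6 falling in DESeq2. Fewer rose without IFNγ + LPS replicate 1. Tlr13, a sensor of bacterial ribosomal RNA, had 91.2 and 87.8 CPM with Dex + IFNγ + LPS against 9.9 and 10 CPM with IFNγ + LPS and 289 and 282 CPM in vehicle (3.17 ± 0.13, adjusted p = 7.4e-11). Clec4e, the mycobacterial glycolipid receptor Mincle, had 1990 and 2005 CPM with Dex + IFNγ + LPS against 894 and 921 CPM with IFNγ + LPS (1.14 ± 0.13). Tlr7, a sensor of single-stranded RNA, had 443 and 397 CPM with Dex + IFNγ + LPS against 200 and 226 CPM with IFNγ + LPS (0.98 ± 0.11). Cd14, the coreceptor for LPS, had 1226 and 1475 CPM with Dex + IFNγ + LPS against 793 and 784 CPM with IFNγ + LPS (0.78 ± 0.14). Clec7a, the beta-glucan receptor dectin-1, went down to 107 and 116 CPM with Dex + IFNγ + LPS, against 395 and 410 CPM with IFNγ + LPS (-1.85 ± 0.10). Tlr4 itself had 14 and 11.5 CPM with Dex + IFNγ + LPS against 14.9 and 17.4 CPM with IFNγ + LPS and was not called (-0.34 ± 0.16).

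Enzymes that make inflammatory mediators went both ways. Ptgs2, the inducible cyclooxygenase, had 725 and 611 CPM with Dex + IFNγ + LPS against 3505 and 3411 CPM with IFNγ + LPS (-2.37 ± 0.15, adjusted p = 1.2e-08). Ptges, the next enzyme toward prostaglandin E2, rose to 33 and 32 CPM with Dex + IFNγ + LPS, against 7.59 and 10.1 CPM with IFNγ + LPS (1.88 ± 0.19). Nos2, inducible nitric oxide synthase, had 3078 and 2573 CPM with Dex + IFNγ + LPS against 3736 and 3846 CPM with IFNγ + LPS (-0.42 ± 0.12, adjusted p = 0.018), and its call was lost without Dex + IFNγ + LPS replicate 2 (adjusted p = 0.20), IFNγ + LPS replicate 1 (0.072) or replicate 2 (0.11). Acod1, which makes itaconate, overlapped, with 10844 and 9977 CPM with Dex + IFNγ + LPS against 10100 and 10308 CPM with IFNγ + LPS (0.03 ± 0.11). Glycolysis and HIF1 genes fell more often than they rose, with 12 of 24 lower, 2 higher and a median of -0.39. Slc16a3, the lactate exporter MCT4, had 46.3 and 49.4 CPM with Dex + IFNγ + LPS against 170 and 158 CPM with IFNγ + LPS (-1.78 ± 0.11), and Hk2, hexokinase 2, had 242 and 212 CPM with Dex + IFNγ + LPS against 383 and 442 CPM with IFNγ + LPS (-0.86 ± 0.12). Pfkfb3, described above, is on this list and rose.

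Proliferation genes were at low levels. Of 38 tested cell cycle and replication genes, 12 rose, 2 fell and 24 were not called (median 0.55); 7 rose without IFNγ + LPS replicate 1 and 5 without IFNγ + LPS replicate 2. Mcm3, a subunit of the replicative helicase, had 15.7 and 13.3 CPM with Dex + IFNγ + LPS against 8.38 and 8.94 CPM with IFNγ + LPS and 18.5 and 20.4 CPM in vehicle (0.75 ± 0.16, adjusted p = 0.0029, and 0.053 without Dex + IFNγ + LPS replicate 1). Cdt1, a licensing factor, fell to 9.8 and 8.47 CPM with Dex + IFNγ + LPS, against 20.1 and 17.9 CPM with IFNγ + LPS. Of 23 cholesterol synthesis genes, 4 rose and 1 fell (median 0.13); 1 rose without Dex + IFNγ + LPS replicate 1 and 1 without IFNγ + LPS replicate 2. Pmvk, phosphomevalonate kinase, had 46.1 and 55.7 CPM with Dex + IFNγ + LPS against 15.8 and 16.8 CPM with IFNγ + LPS (1.65 ± 0.16). Of 25 nuclear oxidative phosphorylation genes 1 fell and 0 rose in edgeR's test, with 0 higher at an unadjusted p under 0.05 and 0 by DESeq2, and of 21 BAF complex subunits 1 rose and 1 fell. The shares over all tested genes were 10.7% higher and 9.21% lower. Brd9 had 21.6 and 22.6 CPM with Dex + IFNγ + LPS and 21 and 20 CPM with IFNγ + LPS (0.11 ± 0.16, adjusted p = 0.71).

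The Dex effect was measured a second time in this experiment in cells that also received dBRD9, with no library shared. There 1858 genes rose (14.0%) and 1917 fell (14.4%) with Dex + dBRD9 + IFNγ + LPS against dBRD9 + IFNγ + LPS. The share of calls that were higher was 49.2%, against 36.5% by DESeq2 and 63.3% with library totals alone. Of the genes that rose with Dex without the degrader, 994 also rose with it (69.6% of 1429 and 53.5% of 1858), and 990 fell in both (80.8% of 1226 and 51.6% of 1917). In the opposite direction were 3 and 2 genes. The log2 fold changes had Pearson's r 0.648 over 13313 genes, a description across genes that share the experiment and its processing. Tsc22d3 had 266 and 260 CPM with Dex + dBRD9 + IFNγ + LPS against 3.66 and 3.15 CPM with dBRD9 + IFNγ + LPS (6.27, adjusted p = 1e-13). Il1b had 89.3 and 107 CPM with Dex + dBRD9 + IFNγ + LPS against 1533 and 1266 CPM with dBRD9 + IFNγ + LPS (-3.83, adjusted p = 3.1e-11). Mx1 had 213 and 200 CPM with Dex + dBRD9 + IFNγ + LPS against 1151 and 1080 CPM with dBRD9 + IFNγ + LPS (-2.43). Cxcl10 and Gbp5 were again not called, with log2 fold changes of 0.12 and 0.00. Whether the Dex effect differed between cells with and without dBRD9 was not tested here.

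The Dex effect without IFNγ was taken from the first experiment, where 3531 genes rose (27.9%) and 3485 fell (27.5%) with Dex + LPS against LPS. It has 3 libraries a group and a biological coefficient of variation of 6.79%, against 2 libraries and 10.6% in the second, so the counts of calls are not comparable. Of 11945 genes tested in both, 860 rose in both (62.2% of 1382 and 24.9% of 3447) and 808 fell in both (69.7% of 1160 and 24.4% of 3309). Of the genes called with IFNγ + LPS, 171 that rose (12.4%) and 126 that fell (10.9%) were called in the opposite direction with LPS. Pearson's r of the log2 fold changes was 0.475 over these genes, which share the species, cell type and Dex dose but no library. The difference between both Dex effects was then tested in 1 fit over all 31 libraries. It was higher in 1958 of 11957 genes (16.4%) and lower in 2033 (17.0%). IFNγ and the experiment cannot be told apart in this test, and Dex + LPS replicate 1 stood apart from the other 2 of its group (chi-square per degree of freedom 42.0 and 44.8, against 2.31 between those). Of the genes fixed for their function or with the largest differences, 55 were called in the difference. Without Dex + LPS replicate 1, 53 of these were called the same way, and the exceptions were Fkbp5 and Il27.

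The difference was called higher, meaning a smaller fall or a larger rise with IFNγ + LPS, in many interferon-driven genes. Type I interferon-induced genes had a median log2 fold change of -0.51 with Dex + IFNγ + LPS and -1.48 with Dex + LPS, where 48 of 49 fell. Their difference was called higher in 36 and lower in 0 by edgeR, with 1 lower at an unadjusted p under 0.05 and 0 by DESeq2. Of 9 immunity-related GTPases tested in both, all 9 fell with Dex + LPS, and the difference was higher in all 9 (median 1.75). Of 25 IFNγ signalling genes and targets the difference was higher in 17 and lower in 4. Nos2 had log2 fold changes of -0.42 with Dex + IFNγ + LPS and -3.55 with Dex + LPS, where it averaged 26.2 ± 1.26 CPM with Dex + LPS and 307 ± 3.57 CPM with LPS (SD, n = 3); the difference was 3.07 (adjusted p = 4.7e-15). H2-Aa averaged 5.38 ± 0.596 CPM with Dex + LPS and 118 ± 3.17 CPM with LPS, a log2 fold change of -4.44, and the difference was 4.03 (adjusted p = 4.6e-15). Over the class II genes 9 of 13 fell with Dex + LPS, and the difference was higher in 8 of 12 and lower in 1. Cxcl10 averaged 377 ± 49.2 CPM with Dex + LPS and 1163 ± 44.5 CPM with LPS (-1.63, adjusted p = 6.7e-13), and its difference was 1.61 (adjusted p = 9e-10). Irgm1 averaged 115 ± 8.38 CPM with Dex + LPS and 403 ± 5.29 CPM with LPS, and its difference was 1.71. Levels are not compared across the experiments, whose tables were normalized separately.

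**Figure D4:**
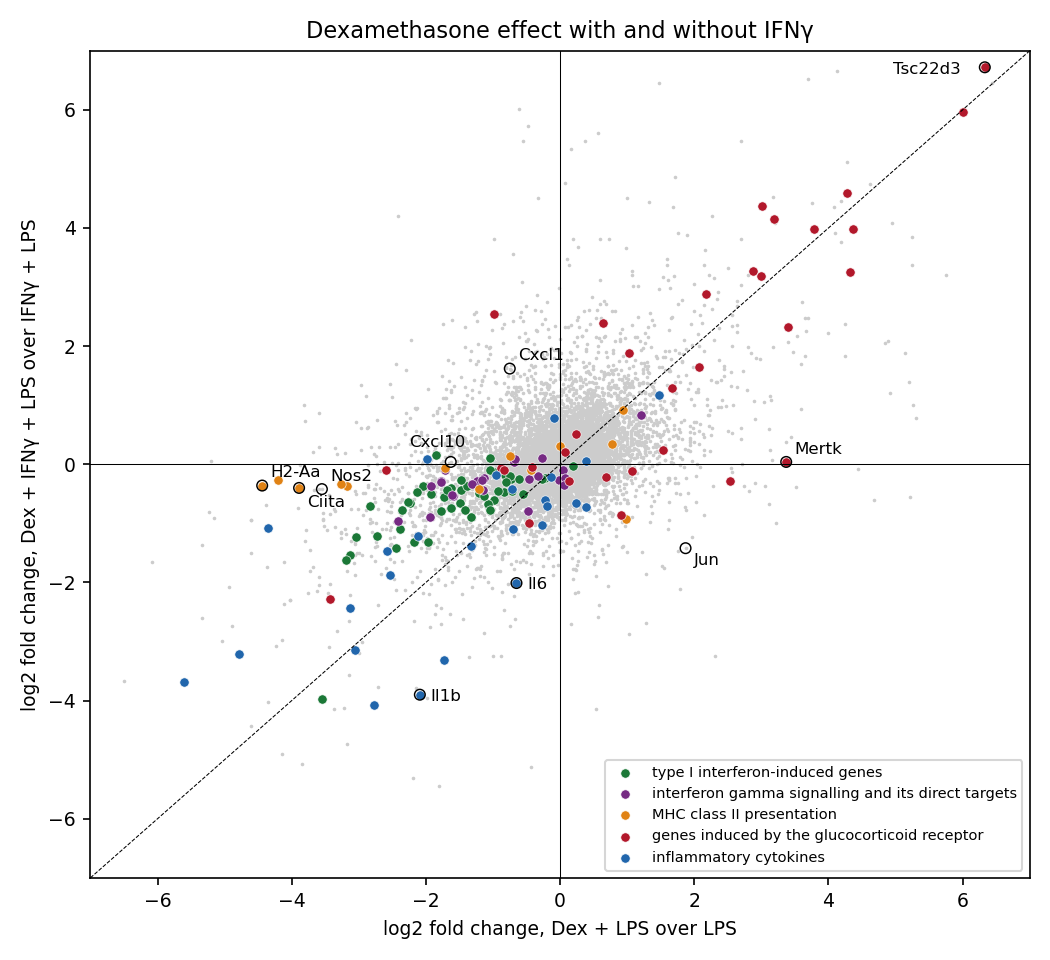
Log2 fold change of Dex + IFNγ + LPS over IFNγ + LPS (vertical) against that of Dex + LPS over LPS (horizontal) for genes tested in both, all in grey and 5 lists in colour; the dashed line marks equal effects. Most type I interferon-induced genes (green) lie left of 0 and above the dashed line, as do Nos2, Ciita and H2-Aa; Tsc22d3 lies close to the line, and Il1b, Il6, Jun and Mertk lie below it.

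Cytokines differed in both directions. Of 27 tested, the difference was higher in 10 and lower in 10. Il1b fell by 3.90 with Dex + IFNγ + LPS and by 2.09 with Dex + LPS, where it averaged 1372 ± 87.0 CPM with Dex + LPS and 5851 ± 237 CPM with LPS; the difference was -1.86 (adjusted p = 6.8e-13). Il6 fell by 2.01 with Dex + IFNγ + LPS and by 0.65 with Dex + LPS, a difference of -1.42 (adjusted p = 2e-07), and Il12b fell by 3.31 with Dex + IFNγ + LPS and by 1.73 with Dex + LPS, a difference of -1.64 (adjusted p = 1.1e-09). Cxcl1 changed direction: its log2 fold change was 1.62 with Dex + IFNγ + LPS and -0.75 with Dex + LPS, where it averaged 1001 ± 46.1 CPM with Dex + LPS and 1686 ± 84.5 CPM with LPS (difference 2.32, adjusted p = 5.2e-14). Jun also changed direction, with -1.42 with Dex + IFNγ + LPS and 1.87 with Dex + LPS, where it averaged 65.6 ± 6.89 CPM with Dex + LPS and 18 ± 0.914 CPM with LPS (difference -3.34, adjusted p = 9.8e-17). Mertk, which was not called with IFNγ + LPS, rose to 124 ± 14.5 CPM with Dex + LPS, against 12.0 ± 0.475 CPM with LPS, and its difference was -3.38 (adjusted p = 1.1e-13). Most glucocorticoid-induced genes had a called difference, but some canonical receptor targets had none. Tsc22d3 had log2 fold changes of 6.72 with Dex + IFNγ + LPS and 6.33 with Dex + LPS (difference 0.33 ± 0.20, adjusted p = 0.21), and Mt2 had 3.98 with Dex + IFNγ + LPS and 3.79 with Dex + LPS (difference 0.13, adjusted p = 0.60). Of the 32 glucocorticoid-induced genes tested, the difference was called in 24, with 13 higher and 11 lower. The shares over all tested genes were 16.4% higher and 17.0% lower.

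Among the genes with the largest differences, Ccl22, a ligand of CCR4, had 53.5 and 54.6 CPM with Dex + IFNγ + LPS against 103 and 101 CPM with IFNγ + LPS (-0.91), and averaged 17.6 ± 2.96 CPM with Dex + LPS and 632 ± 15.7 CPM with LPS (-5.16); the difference was 4.19 (adjusted p = 8.1e-17). F13a1, the coagulation factor XIII A chain, had 27.8 and 25.7 CPM with Dex + IFNγ + LPS against 30.4 and 48.7 CPM with IFNγ + LPS (-0.56, adjusted p = 0.051, with 8 alternatives that called it lower). In the first experiment it averaged 317 ± 29.9 CPM with Dex + LPS and 8.49 ± 0.711 CPM with LPS (5.22), a difference of -5.83 (adjusted p = 7.6e-17). Gpx3, a secreted glutathione peroxidase, had 24.6 and 24.8 CPM with Dex + IFNγ + LPS against 31.4 and 33.3 CPM with IFNγ + LPS, and 110 ± 13.4 CPM with Dex + LPS against 9.73 ± 1.06 CPM with LPS (difference -3.95, adjusted p = 2e-16). Jaml, a junctional adhesion molecule, was instead higher with Dex than without it in both settings. It averaged 5.97 CPM with Dex + IFNγ + LPS and 0.938 CPM with IFNγ + LPS (2.70), and 29.6 CPM with Dex + LPS against 0.107 CPM with LPS (8.07), a difference of -5.40. The level of Jaml with LPS is near 0, so the sizes of 8.07 and of the difference (-5.96 to -4.69 over the alternatives) are uncertain. Proliferation and cholesterol synthesis genes also differed. The difference was higher in 31 of 38 cell cycle genes and lower in 0, with 1 lower at an unadjusted p under 0.05, and 32 fell with Dex + LPS. It was higher in 18 of 23 cholesterol synthesis genes and lower in 0, with 0 at an unadjusted p under 0.05, and 21 fell with Dex + LPS. DESeq2 called 0 lower in both lists. Over 51 tested genes chosen for their function in glucocorticoid, cytokine or interferon responses, 32 differences were called higher, 8 lower and 11 neither.

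**Figure D5:**
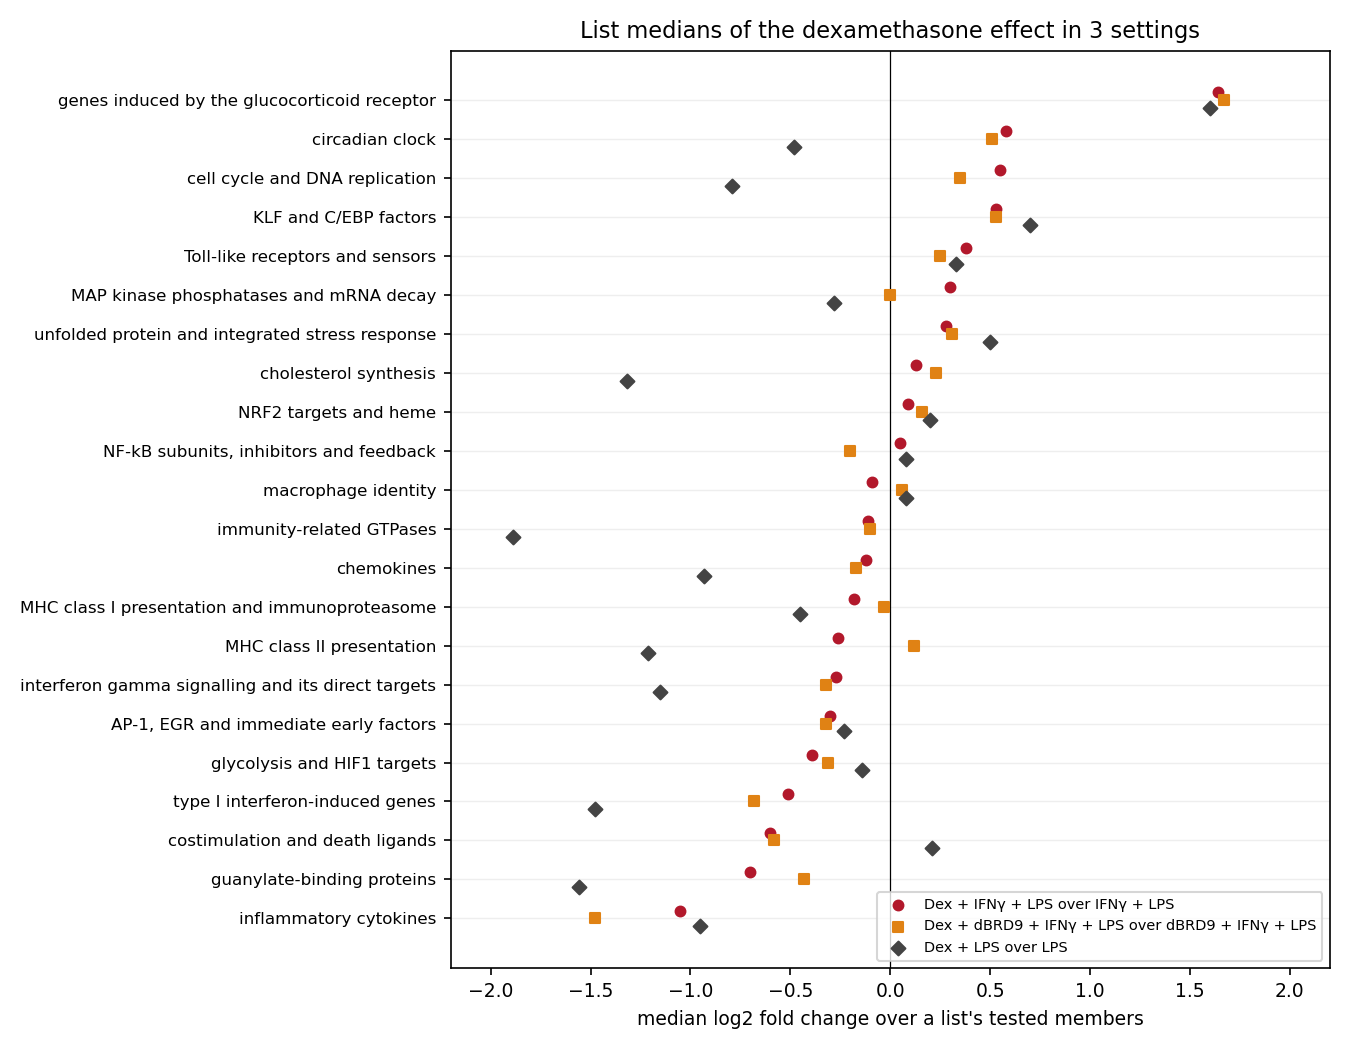
Median log2 fold change over the tested members of 22 lists for Dex + IFNγ + LPS over IFNγ + LPS (circles), Dex + dBRD9 + IFNγ + LPS over dBRD9 + IFNγ + LPS (squares) and Dex + LPS over LPS (diamonds). For type I interferon-induced genes the circle lies at -0.51 and the square at -0.68. The diamonds lie furthest left for the immunity-related GTPases (-1.89), guanylate-binding proteins (-1.56), type I interferon-induced genes (-1.48) and cholesterol synthesis (-1.32). Diamonds can rest on fewer genes than the other symbols, such as 7 guanylate-binding proteins against 11.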

How the data were processed

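The authors deposited 1 table of whole-number counts per experiment, with Ensembl gene identifiers. Tools named in the submitters' processing notes are fastp, STAR and DESeq2, with the mm10 build; no source used here gives the counting tool, its annotation or whether it used strand. Identifiers were matched to GENCODE M21 symbols (99.93% of 54532 in the second experiment and 97.77% of 35275 in the first).

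Counts were tested with edgeR's quasi-likelihood F test (edgeR 4.0.16, limma 3.58.1, R 4.3.3), with TMM factors, 1 mean per group over all groups of an experiment, genes kept by filterByExpr (minimum count 10, total 15) and Benjamini-Hochberg adjustment over all tested genes. A gene was called at an adjusted p under 0.05. The standard error (SE) is the size of the log2 fold change divided by the square root of F. The difference between both Dex effects was tested in 1 fit over all 31 libraries. Depth was 14.47 to 17.93 M counts per library in the second experiment and 19.25 to 29.91 M in the first; intervals and floors cover counting error only. Alternatives were DESeq2 1.42.0, limma voom, other scalings and filters, an offset for transcript length, a replicate block and leaving out each library; the fit was tested on simulated counts.

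The members and the 45 gene lists were chosen with earlier results of these data known. Named genes were 54 fixed for their function, the 15 with the highest and the 15 with the lowest called fold change, up to 5 called members per list with at least 10 CPM (the 2 of highest CPM where fewer were called), and the 8 highest and 8 lowest differences; other genes are said to be chosen after their values were seen. Promoters are from RefSeq (GRCm38.p6). A few genes are not reported here.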

Additional observations from a re-analysis of the deposited data

Results flagged for a closer look

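The difference between the Dex effect with IFNγ + LPS and that with LPS alone was tested directly and passed an adjusted p under 0.05 (edgeR) in 3991 genes, 1958 higher and 2033 lower. IFNγ and the experiment cannot be told apart in it, and the first experiment has its own libraries, depth and table. The values below are log2 differences, Dex effect with IFNγ + LPS minus Dex effect with LPS.

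Among the genes with the highest difference, Ccl17 had 6.67 and Csf3, with few counts in the second experiment, 5.76. Tmem178 had 4.48, Il2ra, the interleukin-2 receptor alpha chain, 4.34, Ccl22 4.19 and Treml2 4.17. Several of these differences rest on a group near 0. Ccl17 averaged 0.0304 CPM with IFNγ + LPS. Il2ra averaged 0.0336 CPM with Dex + LPS and 1.4 CPM with LPS, and Treml2 0 CPM with Dex + LPS and 0.349 CPM with LPS. Over the alternatives the difference was 5.89 to 9.56 for Ccl17 and 2.23 to 4.38 for Treml2, so its size is uncertain. Olfr1396 (4.74) and Olfr56 (4.39) are annotated over each other, and the span of Olfr56 overlaps the interferon-inducible GTPase Ifi47, so their reads cannot be told apart from those of their neighbours. Among the lowest were F13a1 at -5.83, Jaml at -5.40, Cbr2 at -5.35 and Ly6c2 at -4.58. Gpx3 had -3.95, Ms4a4a -3.85, Chil3 -3.84 and Lifr, the receptor of leukaemia inhibitory factor, -3.76.

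Of the interferon-driven and presentation genes, Cxcl10 had 1.61, Cxcl11 3.17 and Cxcl9 0.91. Mx1 had 1.51, Rsad2 1.23 and Ifit1 1.61. Irf1 had 0.66, Socs1 1.41, Gbp2 0.66, Irgm1 1.71, Fcgr1 0.85 and Nos2 3.07. Ciita had 3.44, Cd74 2.75, H2-Aa 4.03, H2-Ab1 2.88, H2-Eb1 3.90 and Cd274 1.00. Ifngr1 was lower, at -0.42.

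Of the inflammatory genes, Il1b had -1.86, Il12b -1.64, Il6 -1.42, Il27 -0.45 and Cd80 -1.01. Ptgs2 had 1.69, Cxcl1 2.32, Ccl2 0.65, Il1a 0.64, Il12a 0.84, Cd40 0.36 and Tnf 0.24. Of the glucocorticoid-responsive genes, Per1 had 1.31, Klf9 0.66, Dusp1 0.33, Zfp36 0.33 and Fkbp5 0.26, while Cd163 had -1.11 and Mertk -3.38. The call on the difference was lost in 14 of 20 alternatives for Fkbp5, 11 for Cd163, 8 for Zfp36, 6 for Klf9, 6 for Il27 and 2 for Tnf.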

How the results depend on the processing

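For the comparison of Dex + IFNγ + LPS with IFNγ + LPS, leaving out 1 library moved the count of all calls most; the lone library is then assumed to vary like the other groups. Leaving out each of the 4 libraries gave 1530 to 1912 calls in place of 2655, of which 792 to 1102 were higher and 674 to 973 lower. An offset for transcript length called 1867 genes lower. For Dex with dBRD9, leaving out a library gave 1993 to 2810 calls (927 to 1286 higher, 1066 to 1524 lower), and DESeq2 called 1187 higher. For the difference between both Dex effects, the change was largest without the other groups of the experiments, with 2844 calls in place of 3991 (1333 lower). Among the genes fixed for their function and those with the highest or lowest values, no called value changed sign. Other genes named from the lists were not part of this check. Lower calls outnumbered higher ones by DESeq2 (1096 higher, 1321 lower), with its size factors in edgeR (1249 and 1453), with the length offset (1509 higher), without a filter on low counts (1357 and 1386), with only the groups compared (1461 and 1559) and without Dex + IFNγ + LPS replicate 1 (939 and 973). Irgm1 (-0.10 to 0.03) and Zfp36 (-0.09 to 0.03), neither called, varied around 0. For the main comparison, 1114 of 1154 results on single genes under the alternatives kept their side of the threshold, 18 lost it and 22 gained it. For the difference, 47 of 1311 lost it and 3 gained it.

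The labels do not say whether replicate numbers pair the libraries. The deviations of replicates from their group means had a correlation of -0.169 between Dex + IFNγ + LPS and IFNγ + LPS over 9372 genes. With 2 libraries a group, this correlation cannot show whether they are paired. A replicate block gave 2392 calls (1307 higher and 1085 lower), 3387 with dBRD9, 7100 with LPS and 3967 for the difference. The crossed pairing, chosen after seeing the data, gave 2366.

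Depth limits genes of few counts: 17 genes called higher and 3 called lower have no count in the other group, and their fold changes have no fixed size.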

Other observations

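Counts for other gene groups follow, beside 10.7% of all tested genes that rose and 9.21% that fell. Of 20 genes of the unfolded protein and integrated stress response, 7 rose and 3 fell. Herpud1, which takes part in the breakdown of proteins at the endoplasmic reticulum, had 89.7 and 95.7 CPM with Dex + IFNγ + LPS against 36.9 and 34.7 CPM with IFNγ + LPS (1.37 ± 0.12, adjusted p = 6.2e-07). Of 17 NRF2 target and heme genes, 6 rose and 2 fell. Hmox1, heme oxygenase 1, had 625 and 686 CPM with Dex + IFNγ + LPS against 238 and 261 CPM with IFNγ + LPS and 1325 and 1242 CPM in vehicle (1.39 ± 0.11). Slc40a1, the iron exporter ferroportin, had 18 and 16.1 CPM with Dex + IFNγ + LPS against 58 and 68.3 CPM with IFNγ + LPS, and 506 and 578 CPM in vehicle (-1.89 ± 0.15). Of 26 lysosomal genes 4 rose and 1 fell, and of 11 heat shock genes 3 fell and 0 rose by edgeR, with 3 higher at an unadjusted p under 0.05 and 0 by DESeq2. The heat shock count that fell was 0 without IFNγ + LPS replicate 2 and 1 without any other single library of the 4.

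Of 20 matrix protease, coagulation and wound genes, 8 fell and 4 rose (median -0.30). Mmp13, a collagenase, had 320 and 309 CPM with Dex + IFNγ + LPS against 1005 and 962 CPM with IFNγ + LPS (-1.65 ± 0.15), while Mmp19 had 51 and 40.7 CPM with Dex + IFNγ + LPS against 7.53 and 9.01 CPM with IFNγ + LPS (2.47 ± 0.18). F10, coagulation factor X, rose to 64.1 and 70.1 CPM with Dex + IFNγ + LPS, against 25.5 and 26.7 CPM with IFNγ + LPS. Of 18 integrin and adhesion genes, 5 fell and 2 rose, with 3 that fell without Dex + IFNγ + LPS replicate 2 and 3 without IFNγ + LPS replicate 2. Itgal, the LFA-1 alpha chain, had 120 and 98.4 CPM with Dex + IFNγ + LPS against 251 and 257 CPM with IFNγ + LPS (-1.22 ± 0.12). Of 19 liver X receptor and lipid genes, 5 rose and 3 fell: Fabp4, a fatty acid carrier, had 153 and 186 CPM with Dex + IFNγ + LPS against 66.8 and 67.6 CPM with IFNγ + LPS (1.33 ± 0.13), and Abcg1, a cholesterol exporter, had 119 and 119 CPM with Dex + IFNγ + LPS against 228 and 272 CPM with IFNγ + LPS (-1.07 ± 0.15).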
